A study of Mus musculus with 2 samples.

Results

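The 10 unfolded protein response (UPR) genes described in tumour endothelial cells (ECs) with and without intratumoural cGAMP were Hspa5, Hsp90b1, Calr, Pdia4, Sdf2l1, Herpud1, Xbp1, Atf4, Ddit3 and Trib3. They were chosen by name, and all 10 were among the 17139 genes listed in both libraries. The data were droplet-based 3′ single-cell RNA sequencing (scRNA-seq) of ECs sorted from subcutaneous Lewis lung carcinoma (LLC) tumours, LLC being a mouse lung tumour line, with 1 library per condition and 1 mouse per library. Both mice were adult C57BL/6 animals (C57BL/6 J males of 8 to 9 weeks at implantation by the methods), for which no altered allele is named, and cells were sorted as Sytox Green-, CD45- and CD31+. The PBS tumour received 70 µl of PBS and the cGAMP tumour 14 µg of cGAMP, a STING agonist, in the same volume. Sampling was at 24 h after the injection by the methods, while 6 h also appears for these libraries, and the time was not settled here.

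The UPR restores protein folding when unfolded protein builds up in the endoplasmic reticulum (ER). The sensor IRE1 splices the Xbp1 transcript into one that encodes an active factor, the kinase PERK slows translation while favouring that of Atf4, and ATF6 is cleaved in the Golgi and enters the nucleus. These factors raise ER chaperones, enzymes that remove misfolded protein and, under lasting stress, the death-linked factor Ddit3 (CHOP). STING is itself an ER membrane protein that leaves for the Golgi once it binds cGAMP, and ECs, which secrete matrix and adhesion proteins, keep a large ER. Counts at the 3′ end of a transcript show neither the splicing of Xbp1 nor the translation of Atf4, so only RNA amounts are described.

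The 10 genes differed in which elements for these factors had an exact match near their start. Matches with other letters or further away were not sought. Each was matched by symbol in RefSeq (GRCm38.p6, the mm10 assembly) to a window from 250 bases before to 50 bases after its start, and exact matches were sought on both strands. The ER stress response element (ERSE) was taken as CCAAT, any 9 bases, then CCACG, and ERSE-II as ATTGG, any 1 base, then CCACG. The 300-base windows of Hspa5, Hsp90b1 and Calr held ERSE and that of Herpud1 held ERSE-II, against 0.119% and 0.0365% of all 32851 windows. Both the genes and the elements were taken from what is known of the UPR. The matches and shares are therefore a description and not a result. The CARE element, read by ATF4 and CHOP and taken as TGATGNAAN, was in the windows of Herpud1 and Trib3 and in 3.95% of all windows. The sites are shown with 10 bases on each side, read along the gene's strand with the match in capitals, since they are set beside the variation over cells below.
Hspa5 ERSE, chr2:34772025-34772043, plus strand: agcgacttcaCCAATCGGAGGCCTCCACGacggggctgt
Hsp90b1 ERSE, chr10:86705638-86705656, minus strand: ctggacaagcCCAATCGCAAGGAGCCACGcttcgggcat
Hsp90b1 ERSE in reverse, chr10:86705533-86705551, minus strand: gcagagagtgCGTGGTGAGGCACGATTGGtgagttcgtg
Calr ERSE in reverse, chr8:84847075-84847093, minus strand: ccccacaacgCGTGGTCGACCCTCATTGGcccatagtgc
Herpud1 ERSE-II, chr8:94386377-94386387, plus strand: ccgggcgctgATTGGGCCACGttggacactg
Herpud1 CARE in reverse, chr8:94386316-94386324, plus strand: accacggcggGTTGCATCAgcccgcaccc
Trib3 CARE in reverse, chr2:152344039-152344047, minus strand: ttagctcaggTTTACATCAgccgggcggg
The Trib3 match began 14 bases after the start, and the other 6 lay before it, between 42 and 212 bases away. The windows of Pdia4, Sdf2l1, Xbp1, Atf4 and Ddit3 held none of these elements letter for letter. The UPRE element, TGACGTGG, was in none of the 10 windows and in 0.676% of all windows. The 250 bases before the Hspa5 start (chr2:34771840-34772089, plus strand), the gene by which cells are ranked below, are given whole, with the element in capitals.
Hspa5 upstream: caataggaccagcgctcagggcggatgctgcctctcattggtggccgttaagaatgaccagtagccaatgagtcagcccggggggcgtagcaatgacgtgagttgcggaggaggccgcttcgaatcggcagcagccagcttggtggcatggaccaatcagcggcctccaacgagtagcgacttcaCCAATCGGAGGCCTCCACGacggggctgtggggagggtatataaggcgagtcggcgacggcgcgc

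The files held 2517 ECs and 92081146 UMIs for PBS and 1340 ECs and 63366746 UMIs for cGAMP, with medians of 29780 and 41178 UMIs per cell. The median mitochondrial share was 4.49% and 2.87%, and 1 cell barcode occurred in both libraries. Summed endothelial markers (6 of 6 listed, none at 0) stood at 4338 and 5341 CPM, that is UMIs per 1000000 UMIs of the library, with Egfl7 the highest. Only Egfl7 (1181.5 and 2122 CPM) and Emcn (575 and 952 CPM) were higher in cGAMP. Pecam1 (944 and 824 CPM), Cdh5 (1146 and 1008 CPM), Kdr (309 and 289 CPM) and Tie1 (183 and 144 CPM) were lower. Leucocyte markers summed to 13.8 and 39.2 CPM (6 genes listed, none at 0, Lyz2 the highest in cGAMP at 12.6 CPM), while plasma cell markers, which would bring abundant UPR transcripts with them, stood at 1.26 and 1.44 CPM. Depth, mitochondrial share and leucocyte RNA thus moved with the condition, and their part in the values below was not tested. Since each condition is a lone library from a lone mouse, the variation from mouse to mouse is unknown and nothing could be tested. Levels are summed CPM, ratios are log2 of cGAMP over PBS, and every 95% interval covers counting error only.

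The chaperones were slightly higher in the cGAMP library, and none reached a 1.5-fold difference. Hspa5 (BiP), the HSP70 of the ER and a restraint on all the UPR sensors, was at 738 CPM in PBS and 863 CPM in cGAMP (log2 ratio 0.22, 0.21 to 0.24). Pdia4, a disulfide isomerase, was at 74.7 and 98.7 CPM (0.40, 0.35 to 0.45), or 1.32-fold higher, the largest positive ratio of the 10 genes. Sdf2l1, an ER-resident partner of the co-chaperone Dnajb11, was at 48.9 and 59.2 CPM (0.28, 0.21 to 0.34). Calr (calreticulin), a calcium-binding lectin chaperone, was at 781 and 856 CPM (0.13, 0.12 to 0.15). Hsp90b1 (GRP94), the HSP90 of the ER, was at 614 and 646 CPM (0.07, 0.06 to 0.09). For all 5 the cGAMP value was the higher, and the difference was beyond counting error but small. In cells with at most 5% mitochondrial UMIs the log2 ratio was 0.012 for Hsp90b1, nearly level, 0.064 for Calr and 0.17 for Sdf2l1.

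Herpud1, a membrane protein that organises ER-associated degradation, was lower, at 59.7 CPM in PBS and 50.8 CPM in cGAMP (log2 ratio -0.23, -0.30 to -0.17). Among the transcription factors, Xbp1 was nearly level, at 284 and 291 CPM (0.03, 0.01 to 0.06). Atf4 was at 186 and 192 CPM (0.05, 0.02 to 0.08). Ddit3 was at 20.4 and 24.9 CPM (0.29, 0.19 to 0.39). The factor linked to cell death was therefore 1.22-fold higher while the factor upstream of it differed little in amount.

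Trib3 was the exception in size. This pseudokinase, a target of ATF4 and CHOP that binds AKT, had 1365 UMIs (14.8 CPM) in PBS and 432 UMIs (6.82 CPM) in cGAMP, or 2.17-fold lower (log2 ratio -1.12, -1.28 to -0.96). Only 1.05% of the 9509 genes that reached 5 CPM in a library had a lower ratio than Trib3. Its presumed activators Atf4 and Ddit3 were not lower in the same library.

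As a set, 8 of the 10 genes had a ratio above 1, as did 40.4% of the 9509 genes. None was 1.5-fold or more higher, against 4.53% of the 9509, and 1 was 1.5-fold or more lower, against 7.41%. The median log2 ratio of the 10 was 0.10, and that of the 9509 was -0.08. The plot of level and ratio shows this narrow spread around no difference, with Trib3 apart.

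**Figure D1:**
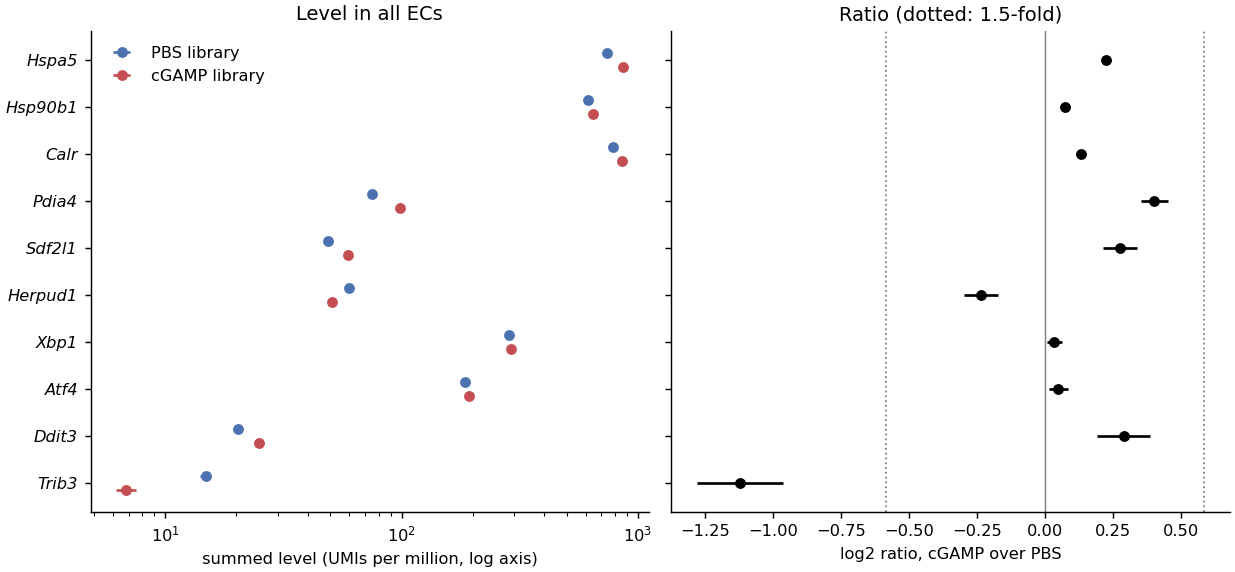
Summed level of each gene in all ECs of a library (left, CPM, log axis) and log2 ratio of cGAMP over PBS (right), with bars for 95% counting intervals, which are mostly smaller than the points, and dotted lines at a 1.5-fold difference. Only Trib3 lies beyond a dotted line, at -1.12, and the other 9 lie between -0.23 and 0.40.

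Because the libraries differed in depth, shares of cells with a UMI were compared after each cell was thinned to 5000 UMIs, which left out 70 PBS and 13 cGAMP cells. Pdia4 was seen in 29.8% of PBS cells (95% interval 27.9 to 31.6%) and 36.8% of cGAMP cells (34.2 to 39.4%). Trib3 was seen in 6.29% (5.36 to 7.33%) and 2.49% (1.72 to 3.47%). Hspa5 was seen in 93.1% (92.0 to 94.1%) and 95.9% (94.7 to 96.9%). For these 3 genes the intervals did not overlap. The share of all genes with intervals apart was not computed, so the 3 are not called unusual. Ddit3 was seen in 10.1% (8.89 to 11.3%) and 11.8% (10.1 to 13.6%), and the intervals of Ddit3 overlapped, as did those of Sdf2l1 (18.0% and 20.3%), Herpud1 (25.7% and 23.1%), Xbp1 (69.6% and 70.8%), Atf4 (59.8% and 61.0%), Calr (94.9% and 95.9%) and Hsp90b1 (90.5% and 90.4%). No cell type lacks these genes, so the myeloid gene Lyz2 stood in as a guide to free RNA, at 2.17% of PBS and 6.03% of cGAMP cells at the same 5000 UMIs. The Trib3 share in cGAMP lay below the Lyz2 share there, so by this guide Trib3 in that library could not be told from background. The guide is rough, since the Lyz2 share does not measure how much free Trib3 RNA there was. Without thinning, Trib3 was seen in 29.8% of PBS and 20.7% of cGAMP cells, Pdia4 in 80.4% and 90.7%, and Hspa5 in 98.8% and 99.9%.

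To see whether EC state mattered, the cells were clustered without the UPR genes and without genes that differed 2-fold between the libraries, which gave 8 clusters. Clusters 4 and 6 carried tip-like markers, cluster 1 stalk-like, cluster 3 arterial-like, and clusters 2 and 5 proliferative ones. Cluster 0 (led by Ramp3 and Esm1) and cluster 7 (led by Igfbp5 and Ctsh) were left unnamed by the naming rule. Cluster 7 nevertheless had 11 of 11 stalk-like markers raised 2-fold or more over other clusters, against 7 of 11 in cluster 1. None of them was among its 10 leading genes. The stalk-like cluster named below is cluster 1 alone. Clusters came from the same cells as the levels, so differences between them are described, not tested. The median fold of the members between the highest and lowest cluster was 1.65 in PBS and 1.54 in cGAMP. For genes with at least 20 CPM it was 1.76 in PBS (5835 genes) and 1.70 in cGAMP. The clusters were built on 1758 genes that exclude the members, and this raises the fold of those among the compared genes. The values thus cannot show whether the members were less uneven than other genes. Trib3 had the largest fold of the 10 genes, at 5.17 in PBS and 5.53 in cGAMP. At 14.8 and 6.82 CPM it lay below the 20 CPM minimum of the compared genes, where counting error widens such a fold.

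The arterial-like cluster, with 353 PBS and 190 cGAMP cells, held the largest ratios of the chaperones. In PBS it had the lowest Hspa5, Calr, Pdia4 and Sdf2l1 of the 8 clusters, with Sdf2l1 within counting error of cluster 7 and Pdia4 within that of clusters 1 and 7. Pdia4 was at 61.4 CPM in PBS and 117 CPM in cGAMP there (log2 ratio 0.93, 0.77 to 1.09). Hspa5 was at 623 and 943 CPM (0.60, 0.55 to 0.65). Hsp90b1 was at 483 and 777 CPM (0.69, 0.63 to 0.74). Sdf2l1 was at 27.4 and 50.4 CPM (0.88, 0.64 to 1.12), and Calr at 637 and 918 CPM (0.53, 0.47 to 0.58). In cGAMP the arterial-like cluster ranked first or second of the clusters for Hspa5, Hsp90b1, Calr and Pdia4, whereas Sdf2l1 stayed below clusters 0, 1, 2, 5 and 6.

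The arterial-like cluster was singled out after the ratios of all clusters were seen. Its counts therefore describe that choice and are not a result. In the arterial-like cluster 4 of the 10 genes were 1.5-fold or more higher, against 7.8% of the 9445 genes with at least 5 CPM there. The median log2 ratio of the 10 was 0.48, against -0.09 for the 9445. Of the other clusters only cluster 7 had members 1.5-fold or more higher, 2 of the 10, against 12.4% of 9624 genes there. They were Sdf2l1, with 28 and 62 UMIs and an interval that held 0 (-0.08 to 1.29), and Ddit3, with 14 and 42 UMIs. The arterial-like cells were shallower in PBS (median 19643 UMIs) than in cGAMP (27995). In cells with at least 20000 UMIs, 174 and 139 in number, Hspa5 stood at 0.63 and Pdia4 at 0.94 on the log2 scale, and 4 genes were again 1.5-fold higher. With each cell thinned to 5000 UMIs the count was 4, and in cells with at most 5% mitochondrial UMIs it was 3. Leucocyte markers there summed to 11.8 CPM in PBS and 24.6 CPM in cGAMP. Whether the arterial-like ratio differs from that of other states was not tested.

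Elsewhere the chaperones differed less. In the stalk-like cluster Hspa5 was at 682 and 851 CPM (log2 ratio 0.32) and Pdia4 at 69.2 and 104 CPM (0.58). In tip-like cluster 4, led by Gal and Chga, Hspa5 was at 737 and 760 CPM (0.04) and Calr was lower, at 792 and 733 CPM (-0.11). In cluster 6 Hsp90b1 and Calr were lower in cGAMP, at -0.12 and -0.22. Pdia4 and Sdf2l1 were above 1 in each of the 8 clusters, from 0.08 to 0.93 and from 0.00 to 0.88, as were 13.8% of the 9509 genes. Neither was so with cells thinned to 5000 UMIs, in cells with Pecam1 and Cdh5 and no leucocyte UMI, or without the Hspa5-rich cells described below.

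Herpud1 and Trib3 were below 1 in each of the 8 clusters, as were 19.6% of the 9509 genes. With cells thinned to 5000 UMIs neither was below 1 in all of them, and Herpud1 in the arterial-like cluster was at 0.12. Without integration it was at 0.01 there, while Trib3 was below 1 in all 5 clusters used. Herpud1 ranged from -0.57 in cluster 6 (81.4 and 55.0 CPM) to -0.12 in the arterial-like cluster, and it was lower in the stalk-like cluster, at 69.3 and 48.7 CPM, where the chaperones were higher. Trib3 ranged from -1.57 in the histone-led proliferative cluster 2 (187 against 43 UMIs) to -0.39 in cluster 7, where it had 8 and 9 UMIs. In 7 of 8 clusters Trib3 was 1.5-fold or more lower, which held for 2.02% of the 9509 genes. The lower Trib3 was therefore seen within states and not in the pooled sum alone.

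**Figure D2:**
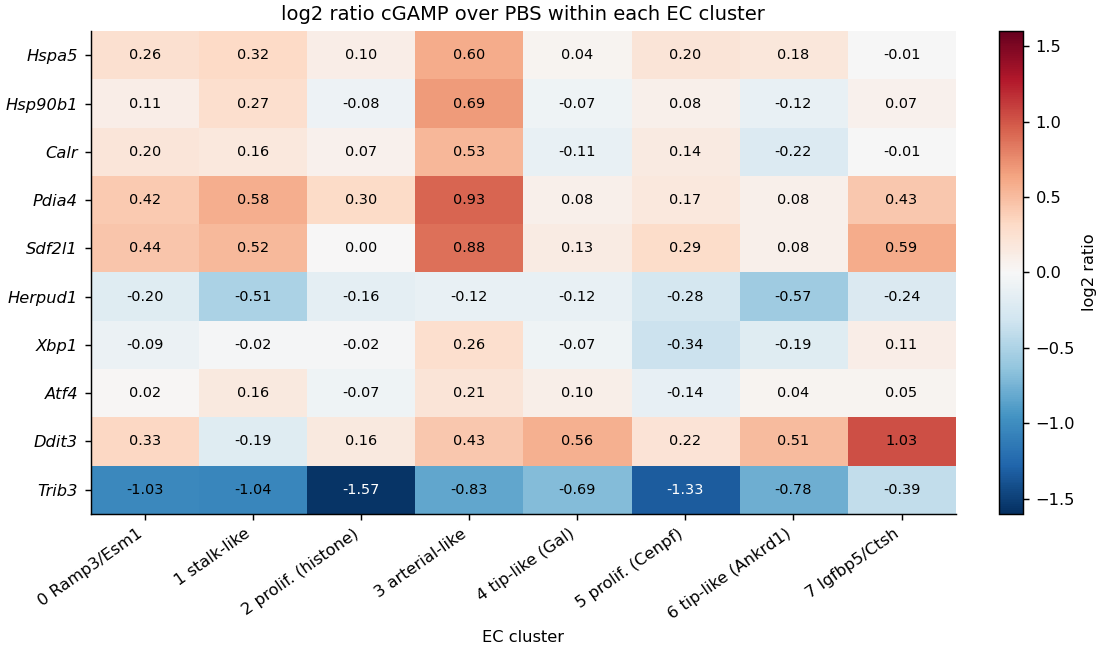
Log2 ratio of cGAMP over PBS for each gene (rows) within each EC cluster (columns), with red for higher and blue for lower in cGAMP. The arterial-like column holds the highest values for the 5 chaperones, up to 0.93 for Pdia4, and the Herpud1 and Trib3 rows are negative throughout.

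Xbp1 and Ddit3 followed states in other ways. Xbp1 was highest in the stalk-like cluster of both libraries, at 395 CPM in PBS and 390 CPM in cGAMP, against 219 CPM in the PBS arterial-like cluster. It was lower in cGAMP in 6 clusters, with intervals that held 0 in 3 of them (1, 2 and 4), and the lowest ratio was in proliferative cluster 5 (276 and 218 CPM, log2 ratio -0.34), and higher in the arterial-like cluster (219 and 263 CPM, 0.26). Ddit3 was higher in cGAMP in 7 clusters, with 23.0 and 34.0 CPM in tip-like cluster 4 (0.56, 0.31 to 0.82), and lower in the stalk-like cluster, at 26.0 and 22.8 CPM (-0.19, -0.43 to 0.05), where the interval held 0. Ddit3 was low in both proliferative clusters, between 14.05 and 16.4 CPM. Atf4 kept a narrow range, from 166 to 193 CPM over 7 PBS clusters, with cluster 6 above at 254 CPM.

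Cluster 6, tip-like and led by Ankrd1, Pgf and Bnip3, stood out for several genes at once. In PBS it was the highest cluster for 7 of the 10 genes (Hspa5, Hsp90b1, Pdia4, Herpud1, Atf4, Ddit3 and Trib3), against 11.6% of the 9336 genes with at least 5 CPM, and in cGAMP for 5 (Hspa5, Hsp90b1, Atf4, Ddit3 and Trib3), against 15% of 9196. The PBS count was 4 at resolution 0.3 and 2 (Atf4 and Trib3) without integration, and Pdia4 led cluster 5 within counting error (85.2 and 83.4 CPM). Hspa5 was at 954 CPM in PBS and 1081 CPM in cGAMP. Trib3 was at 34.0 and 19.8 CPM and Ddit3 at 35.1 and 49.99 CPM. This cluster also had the highest summed hypoxia genes, at 9198 CPM in PBS and 7425 CPM in cGAMP, against 2104 to 3903 CPM in the other clusters. Its leucocyte markers summed to 32.9 CPM in PBS and 304 CPM in cGAMP, the highest of the clusters in each library. The part of either in the UPR levels was not tested.

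Cluster 6 also held the cells with the most Hspa5. The 5 PBS cells with the highest Hspa5 were all in it, the first with 309 Hspa5 UMIs of 11702 in the cell (26406 CPM) and Hsp90b1 at 18117 CPM. In cGAMP 3 of the top 5 were in it. Cells with at least 3 times the library's median Hspa5 numbered 79 in PBS (3.14%, 2.49 to 3.90%) and 22 in cGAMP (1.64%, 1.03 to 2.48%), with 15 of the 79 and 4 of the 22 in cluster 6. The library medians were 625 and 767 CPM, so the cut lay higher in cGAMP. The picked cells also differed in depth, with medians of 23070 UMIs in PBS and 39340 UMIs in cGAMP. Their numbers are therefore not compared between the libraries. Without these cells Hspa5 in cluster 6 was at 654 CPM in PBS and Hsp90b1 at 674 CPM, neither the highest, and the count of genes highest there was 3 in PBS and 2 in cGAMP. Atf4, at 238 CPM, Ddit3, at 29.1 CPM, and Trib3, at 32.3 CPM, remained highest there in PBS. The cells were picked on Hspa5 after its values were seen, so leaving them out had to lower Hspa5 and the genes that vary with it, and these values are a description of the choice and not a result.

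**Figure D3:**
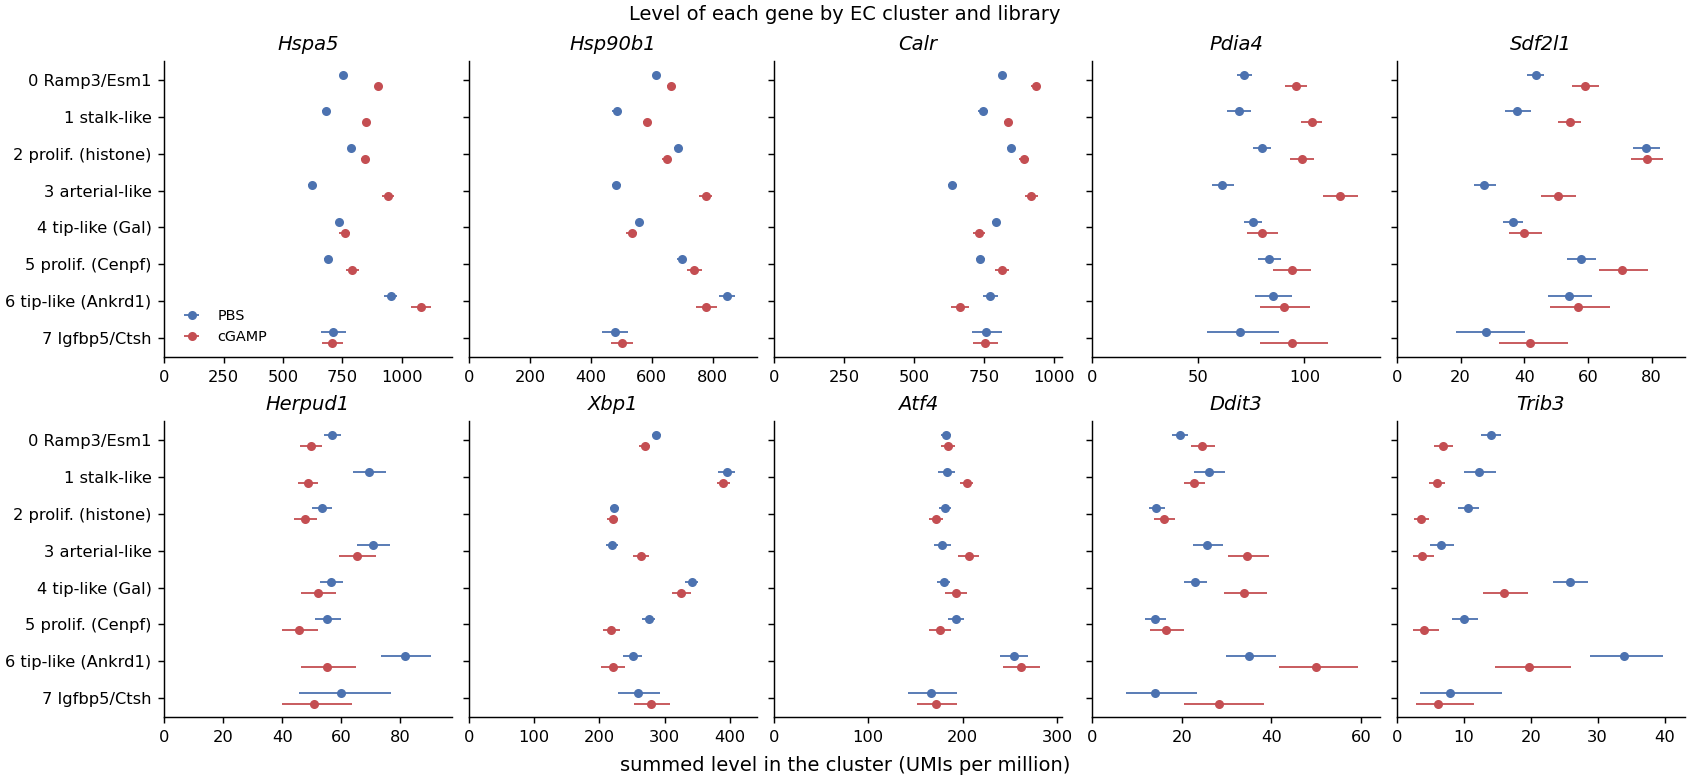
Summed level of each gene by EC cluster (CPM, from 0, with 95% counting intervals) in the PBS (blue) and cGAMP (red) libraries. Hspa5, Atf4, Ddit3 and Trib3 peak in the Ankrd1-led cluster 6 in both libraries, Xbp1 peaks in the stalk-like cluster, and Sdf2l1 peaks in the histone-led proliferative cluster at 78.3 and 78.5 CPM.

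Over cells of the same cluster, the 5 chaperones varied together, and r was lower for every pair with another of the 10 genes. Pearson r was taken over 2517 PBS and 1340 cGAMP cells on log2(CPM + 100) after the cluster mean was subtracted, as a description, since cells of a library share its depth and RNA pool. The 10 chaperone pairs ran from 0.20 to 0.54 in PBS and from 0.31 to 0.60 in cGAMP, with medians of 0.34 and 0.43. Hspa5 with Hsp90b1 gave 0.54 and 0.58, and Hspa5 with Calr gave 0.47 and 0.60. Over all 45 pairs the medians were 0.05 and 0.07, and Hspa5 gave at most 0.16 with Xbp1, Atf4, Ddit3 or Trib3 in either library. With cells thinned to 5000 UMIs the chaperone medians were 0.15 and 0.13. Ddit3 had no UMI in 55.6% of PBS and 40.6% of cGAMP cells, and Trib3 in 70.2% and 79.3%. Counts this sparse keep r low, so the values of Ddit3 and Trib3 cannot show that they vary apart from the chaperones.

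**Figure D4:**
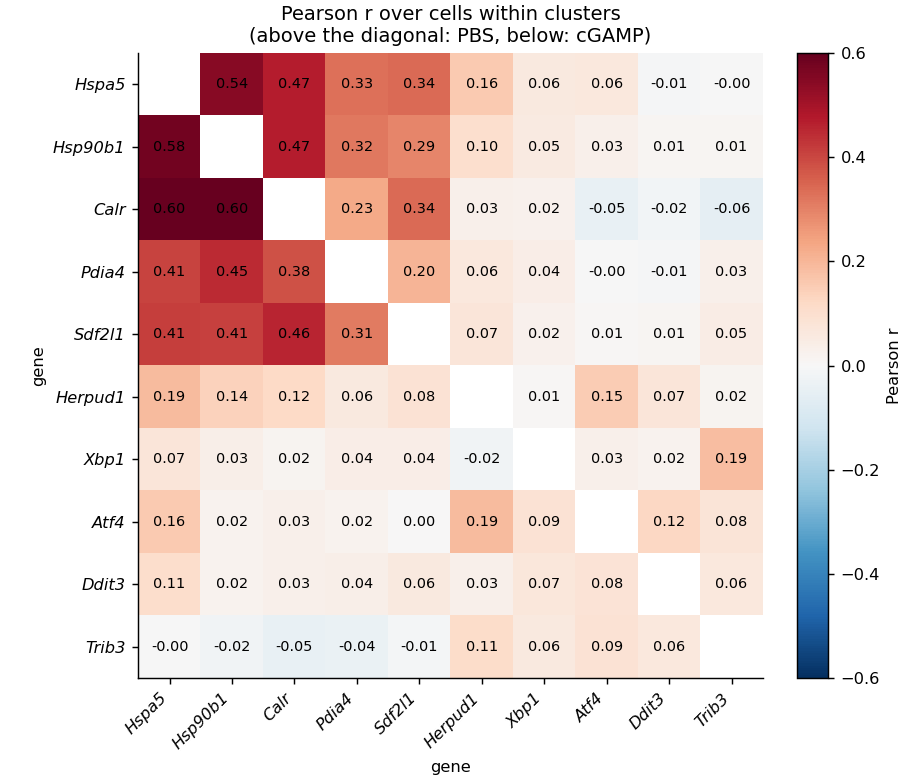
Pearson r over cells between each pair of genes, cluster mean subtracted, with PBS above the diagonal and cGAMP below it. The block of 5 chaperones holds the high values, up to 0.60, and the rows of Xbp1, Atf4, Ddit3 and Trib3 reach at most 0.19.

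The same split was seen in levels when cells were ranked by Hspa5 within cluster and library. Between the 25% of cells with the lowest and the 25% with the highest Hspa5, Sdf2l1 went from 27.5 to 83.5 CPM in PBS (3.04-fold) and from 34.1 to 94.1 CPM in cGAMP (2.76-fold). Hsp90b1 differed 2.29-fold and 2.15-fold, Calr 1.997-fold and 1.96-fold, and Pdia4 1.97-fold and 1.96-fold. Herpud1 came between, at 1.40-fold and 1.46-fold. Xbp1 (1.03-fold and 1.06-fold), Atf4 (0.995-fold and 1.15-fold), Ddit3 (0.934-fold and 1.14-fold) and Trib3 (0.852-fold and 0.908-fold) differed little, beside 1.30-fold and 0.994-fold for Actb, a cytoskeletal gene. In PBS, cells rich in Hspa5 RNA were thus rich in the other chaperones with no more than 1.03-fold the RNA of the UPR transcription factors, while in cGAMP Atf4 (182 and 210 CPM) and Ddit3 (23.7 and 27.0 CPM) were slightly higher too.

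The genes most like Hspa5 over cells were Hsp90b1, Manf (an ER-stress-induced secreted protein), Pdia6 and Pdia3 (disulfide isomerases) and Calr, with a lower-of-both-libraries r of 0.43 to 0.54 among 5417 genes. Of the 50 most alike, 17 (34%) were on the UPR lists, which held 2.27% of the genes compared. The lists here included the members themselves, and Hsp90b1, Calr, Sdf2l1 and Pdia4 were among the 17. The count is thus partly the co-variation of the chaperones given above. Some genes with an ERSE or ERSE-II in their window were close to Hspa5 as well. The 10 genes with an element outside the present set that could be compared had a median r of 0.20, against 0.01 for all 5417. Of them 5 (Pdia6, Creld2, Dnajb11, Dnajc3 and Canx) reached 0.2, as did 0.886% of the 5417. These 5 were all on the list of ER folding genes described below. The others, on none of the lists, were Hnrnpa3 (0.19), Nucb1 (0.079), Krtcap2 (0.060), Lrif1 (0.001) and Rbm39 (-0.015). The part of the element apart from that list was not tested. The windows of Pdia4 and Sdf2l1, which varied with Hspa5, held no exact ERSE. Of the 22 measured ERSE or ERSE-II genes 10 had a ratio above 1, near the 40.4% of the 9509 genes, and their median log2 ratio was 0.00, beside -0.08.

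For Atf4 the most alike genes were Slc38a2, an amino acid transporter and ATF4 target, Brd2, Trib1, Ifrd1 and Hbegf, with r of 0.17 to 0.20. For Ddit3 they were H2-Q4, Sqstm1, Plin2, B2m and Dusp1, with r of 0.10 to 0.15. Values this low in sparse counts are given for completeness and are no finding.

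The rest of the pathway was described from lists written from general knowledge. Among 18 sensors and transducers, 7 were higher and 11 lower in cGAMP, none by 1.5-fold, with a median log2 ratio of -0.03. The extremes were Creb3l2, a transducer related to ATF6 (140 and 98.9 CPM, -0.51), Mbtps1, the protease that cuts ATF6 (33.8 and 24.1 CPM, -0.49), Eif2ak2, the interferon-induced kinase PKR (58.7 and 74.5 CPM, 0.34), and Eif2s1, the translation factor that PERK phosphorylates (131 and 182 CPM, 0.47). Of 26 measured ER folding genes 15 were higher and none differed by 1.5-fold (median 0.04), with Pdia3 at 394 and 516 CPM (0.39) and Dnajb9 at 39.2 and 49.1 CPM (0.33) at the upper end and Pdia5 at 45.4 and 31.7 CPM (-0.52) and the hypoxia-linked oxidase Ero1l at 61.7 and 47.3 CPM (-0.39) at the lower. Pdia3 is also part of the machine that loads peptides on MHC class I.

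Neither of the 2 lists for the route through the ER held a gene past 1.5-fold. Of 21 degradation genes 12 were higher (median 0.01), from Edem3 (-0.37) and Rnf139 (-0.25) to Ufd1 (0.23) and Selenos (0.28). Of 32 translocation and transport genes 18 were higher (median 0.04), from Sec63 (-0.28) and Sec61a1 (-0.27) to Spcs1 (0.30) and Srprb (0.34).

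Of 33 measured genes on the ATF4 and stress-response target list, 23 were higher and 10 lower (median 0.07). At least 1.5-fold higher were 2 and at least 1.5-fold lower 2, shares near the 4.53% and 7.41% of the 9509 genes. Nupr1, a small stress-induced nuclear protein, was at 13.7 and 73.4 CPM (log2 ratio 2.42, 2.33 to 2.51). Slc7a11, the cystine importer, was at 4.17 and 8.62 CPM (1.05). Pck2 was at 39.1 and 22.5 CPM (-0.80) and Vldlr at 6.77 and 2.64 CPM (-1.36), on the side of Trib3. Exact CARE matches were in the windows of 13 of the 31 listed genes found in RefSeq, yet the 199 measured genes of all kinds with a CARE had a median log2 ratio of -0.09, close to the -0.08 of the 9509 genes.

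Of 13 genes that tie ER stress to death, 1 was 1.5-fold higher, the inflammatory caspase Casp4 (57.7 and 90.3 CPM, 0.65), and 2 were 1.5-fold lower, the calcium channel Itpr1 (74.4 and 41.0 CPM, -0.86) and the BH3-only gene Bcl2l11 (37.5 and 24.8 CPM, -0.60). Casp12, an ER-linked caspase of the mouse, was at 17.2 and 22.9 CPM (0.41). The median of the list was 0.05.

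For comparison, 13 of 17 cytosolic heat shock genes were higher, none by 1.5-fold (median 0.14), with Hspa1a at 142 and 189 CPM (0.42), Hspe1, a mitochondrial co-chaperone, at 444 and 590 CPM (0.41), Hsph1 at -0.19 and Bag3 at -0.26. Of 15 hypoxia genes 14 were lower, 3 of them by 1.5-fold or more (median -0.34), including Egln3 (25.3 and 5.54 CPM, -2.19) and Ankrd37 (110 and 57.3 CPM, -0.95), while Aldoa (-0.03) and Ldha (0.01) were level. Trib3 was highest in the cluster richest in hypoxia genes and differed in the same direction as that list, and the part of hypoxia in its level was not tested.

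**Figure D5:**
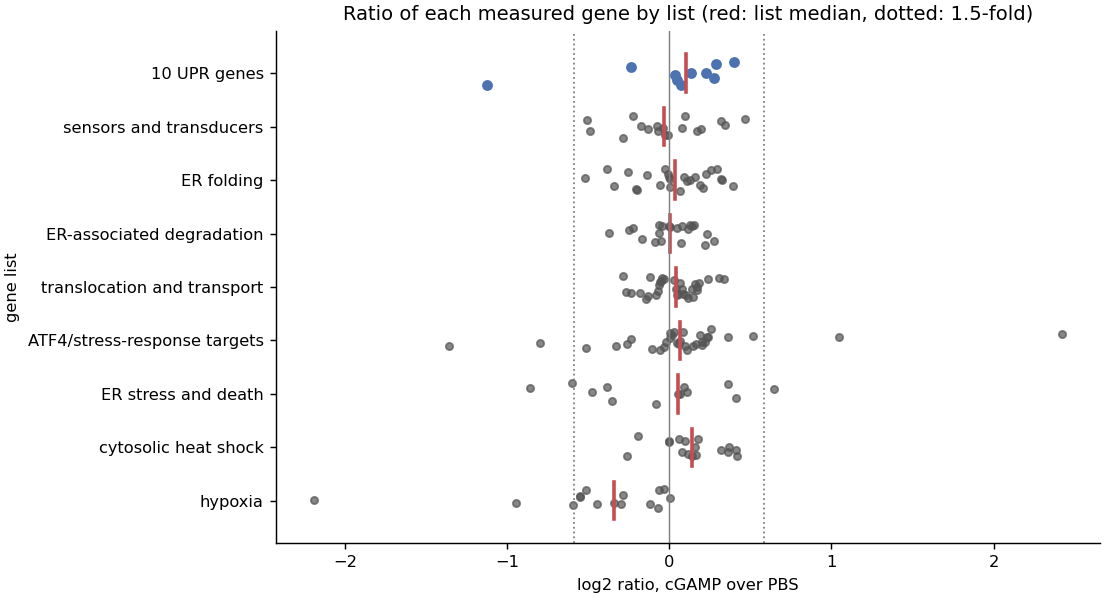
Log2 ratio of cGAMP over PBS for each measured gene (points) of the 10 UPR genes and of 8 lists (rows), with red bars for medians and dotted lines at a 1.5-fold difference. List medians lie between -0.34 (hypoxia) and 0.14 (cytosolic heat shock), and Nupr1 at 2.42 and Egln3 at -2.19 are the outermost points.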

How the data were processed

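Per the labels and methods, Cell Ranger 3.0.0 mapped reads to mm10 and the authors used Seurat 3.1.1, removing cells with under 500 genes or over 10% mitochondrial UMIs, genes in fewer than 3 cells, and clusters other than ECs. The labels name a v2 kit and the methods a v3 kit. The values the authors deposited are natural log values, ln(1 + UMIs per 10000 UMIs of a cell). They were turned back into UMI counts (100% within 0.01 of a whole number) and summed per library or cluster as CPM. Intervals (95%) are exact Poisson for levels and exact binomial for ratios and shares. Clustering used Seurat 5.3.0 (R 4.3.3; 2500 variable genes less UPR and 2-fold genes, integration anchors, Louvain resolution 0.5), and clusters were named from fixed markers. A name needed at least 3 of a type's markers raised 2-fold and at least 1 among the 10 leading genes of the cluster. Doublets were not called. Other steps used Python 3.11.15 and scipy 1.17.1 and were tested on simulated data.

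Members and lists were chosen with earlier results of these data known. Beside the 10 members the text names, per list, the 2 genes with the highest and the 2 with the lowest ratio, the 5 genes most like Hspa5, Atf4 and Ddit3, and cluster markers. ERSE genes, Hspa5-rich cells and the arterial-like cluster were picked after their values were seen. The alternatives are in the closing section.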

Additional observations from a re-analysis of the deposited data

Results flagged for a closer look

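The rule here was a log2 ratio of cGAMP over PBS of at least 0.32 in 1 cluster and at most -0.32 in another. Both counting intervals had to be clear of 0. None of the 10 UPR genes met it, and 13 genes of the lists did. Beside the 10, the UPR lists held 142 measured genes, and the heat shock and hypoxia lists 17 and 15. The share of all 9509 genes that meet the rule was not computed, so no contrast with the 10 is drawn. The opposite values are given without a test of the difference, and they are the extremes of 8 clusters for each of the listed genes. Of the 13 genes, 5 were on the list of ATF4 and stress-response targets. Asns, asparagine synthetase, stood at 0.92 in the arterial-like cluster and at -0.38 in the Ankrd1-led tip-like cluster. Slc7a11 stood at 2.95 in the Gal-led tip-like cluster and at -2.88 in cluster 7, on few UMIs. Slc7a5, a leucine transporter, stood at 0.88 in the arterial-like cluster and at -0.43 in the Gal-led tip-like cluster. Gdf15, a stress cytokine, stood at 1.85 in the Gal-led tip-like cluster (1.40 and 5.04 CPM) and at -0.99 in the arterial-like cluster (30.2 and 15.2 CPM). Stc2 stood at 0.38 in the histone-led proliferative cluster and at -1.24 in the Ankrd1-led cluster.

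Among genes of the ER itself, Kdelr3, a receptor that returns ER proteins from the Golgi, stood at 1.09 in the arterial-like cluster (15.3 and 32.6 CPM) and at -0.42 in the Ankrd1-led cluster. Fkbp2 stood at 0.43 in the arterial-like cluster and -0.44 in cluster 7, and Fkbp11 at 0.34 in cluster 0 and -0.77 in cluster 7. Mbtps2 stood at 0.55 in the Cenpf-led proliferative cluster and -0.51 in the arterial-like cluster, and Traf2 at 0.62 in the Ankrd1-led cluster and -0.48 in the Gal-led cluster. Tnfrsf10b, a death receptor, stood at 0.41 in the Gal-led cluster and -0.41 in the stalk-like cluster. Outside the pathway, Hspa1b stood at 1.59 in the Cenpf-led proliferative cluster and -0.33 in the Ankrd1-led cluster, and Adm at 1.11 in the stalk-like cluster and -2.88 in cluster 7.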

How the results depend on the processing

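The direction of 9 of the 10 ratios held under all 9 alternatives of scaling and cell choice, and Xbp1 reversed, from 0.03 to -0.026, with cluster proportions held at the average. Trib3 ranged from -1.33 to -0.93. The median log2 ratio of the members, 0.10, was 0.14 with median-of-ratios scaling, 0.12 as a mean of each cell's own CPM, 0.051 in cells with at most 5% mitochondrial UMIs, 0.14 without proliferative clusters and 0.079 without mitochondrial genes in the total. The count of members highest in the Ankrd1-led cluster in PBS, 7, was 4 at resolution 0.3, 2 without integration and 3 without the Hspa5-rich cells. In cGAMP, where it was 5, it was 2, 3 and 2 in the same order. Members higher in every cluster, 2, numbered 1 at resolution 0.8, 4 without integration, 1 with all variable genes, 0 after thinning to 5000 UMIs, 0 in cells with Pecam1 and Cdh5 and no leucocyte UMI, and 1 (Hspa5) without the Hspa5-rich cells. Members lower in every cluster, 2, numbered 1 (Trib3) without integration and 0 after thinning. The arterial-like count of 4 was 2 at resolution 0.3, where the cluster was larger, with a median of 0.34 in place of 0.48, and the median was 0.38 in cells with at most 5% mitochondrial UMIs. The chaperone pairs' median r, 0.34 and 0.43, was 0.15 and 0.13 after thinning to 5000 UMIs. The alternatives on Hspa5-rich cells and the arterial-like cluster, and those of depth and cell choice within clusters, were chosen after seeing the data. The cause of these changes was not tested. No paired analysis was possible because each condition is 1 library, and for the same reason no replicate could be left out. Depth limits Trib3 in cluster 7, with 8 and 9 UMIs, and Ddit3 there, with 14 and 42.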
